A study of Mus musculus with 12 samples.

Results

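The semaphorins are guidance ligands, and the plexins and neuropilins are their receptors. All genes of the count tables whose symbol begins with Sema3, Sema4, Sema5, Sema6, Sema7 or Plxn were taken, together with Nrp1 and Nrp2. This gave 31 genes of 52553, of which 20 were semaphorins, 9 were plexins and 2 were neuropilins. Sema3e and Sema5b never exceeded 2 counts in a library and were taken as absent, the limit being 10 counts in at least 1 library. The next lowest gene, Sema3a, reached 24 counts in 1 library and did not pass the filter on low counts, so that 17 ligands and all 11 receptors were tested. The genes just inside the limit after Sema3a were Sema3d with up to 26 counts, Plxna2 with up to 30 and Sema3g with up to 35.

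RNA-seq was performed on cells labelled as monocytes, from male C57BL/6 mice with an intact spleen. They were isolated from the spleen or from peripheral blood with magnetic beads against CD115, the receptor for macrophage colony-stimulating factor. The 4 groups were spleen and blood of animals labelled intact, and the same tissues 24 h after 70% of the liver mass had been removed. No library was labelled as sham-operated, so that effects of the operation and of the loss of liver mass cannot be told apart. Each group had 3 libraries, and each library pooled cells of 5 mice, so that p-values measure the spread between pools. Splenectomized animals of the study were not part of these libraries.

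Class 3 semaphorins are secreted and mostly act through a complex of a neuropilin, which binds the ligand, and a class A plexin, which carries the signal. The semaphorins of classes 4 to 6 are membrane proteins that bind plexins directly, and Sema7a is held to the membrane by a lipid anchor. The cytoplasmic part of a plexin acts on small GTPases and thereby on the actin cytoskeleton and on integrin adhesion, and in leukocytes the system is known for its part in migration and in contacts between myeloid and lymphoid cells.

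The libraries held from 36990033 to 46401368 estimated counts. Levels are given as CPM, the count of a gene per 1000000 counts of its library after scaling with the trimmed mean of M values (TMM). The limit of counting, 3 counts in a library, corresponded to 0.0626 to 0.102 CPM and covers counting error only. All 10 monocyte marker genes had at least 10 counts in every library, with a summed level of 1660 to 2042 CPM in intact spleen, 3283 to 3790 in spleen after resection, 1267 to 2780 in intact blood and 4522 to 8575 in blood after resection. Markers of other cells were present too. In intact spleen B-cell markers summed to 4987 to 5669 CPM, above the monocyte markers, so that the levels are those of mixed cells. Haemoglobin genes held 13.2% to 34.2% of the counts in blood and 0.0814% to 3.47% in spleen. Library 3 of intact blood stood apart: 13 of the 28 tested members lay more than 2-fold above or below both other libraries of its group, against 0 and 1 in those 2 libraries, and its T-cell markers summed to 2288 CPM against 756 and 763.5 CPM. Library 3 of resected spleen did so for 8 members. In bulk samples fewer cells of a type and less RNA per cell cannot be told apart.

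Among the ligands, Sema4a, Sema4b and Sema4d were expressed at the highest levels per length of exon, and Plxnb2 led the receptors in each group. To compare genes with each other, CPM were divided by the exon length in kilobases (kb). In intact spleen the mean level was 41.7 CPM per kb for Sema4d, 33.6 for Sema4b, 18.6 for Sema4a and 8.20 for Sema7a, and the libraries of each of these neighbours did not overlap. The order in resected spleen was Sema4a with 35.7, Sema4d with 27.8 and Sema4b with 22.7 CPM per kb, and their libraries overlapped. In intact blood Sema4d had 38.1, Sema4a 29.0 and Sema4b 17.2 CPM per kb, again with overlap between neighbours. After resection the blood values were 71.2 for Sema4a, 33.0 for Sema4d, 19.1 for Sema4b and 16.4 for Sema6b, and each neighbour overlapped the next. The highest 3 ligands made up 70.2% to 86.8% of the summed ligand level of a library.

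The receptor order was less uniform. Plxnb2 averaged 18.0 CPM per kb in intact and 22.2 in resected spleen, and 21.9 in intact and 28.2 in resected blood. It was followed by Plxnc1 in spleen, at 16.3 CPM per kb before and 8.46 after resection, by Plxnd1 in intact blood at 21.1, and by Nrp1 in resected blood at 14.9. The libraries of Plxnb2 overlapped those of the next receptor in both intact groups and did not overlap them in either resected group. Plxna2 was the lowest receptor in all 4 groups, between 0.0107 and 0.0356 CPM per kb. The highest 3 receptors made up 72.0% to 80.4% of the summed receptor level of a library.

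**Figure D1:**
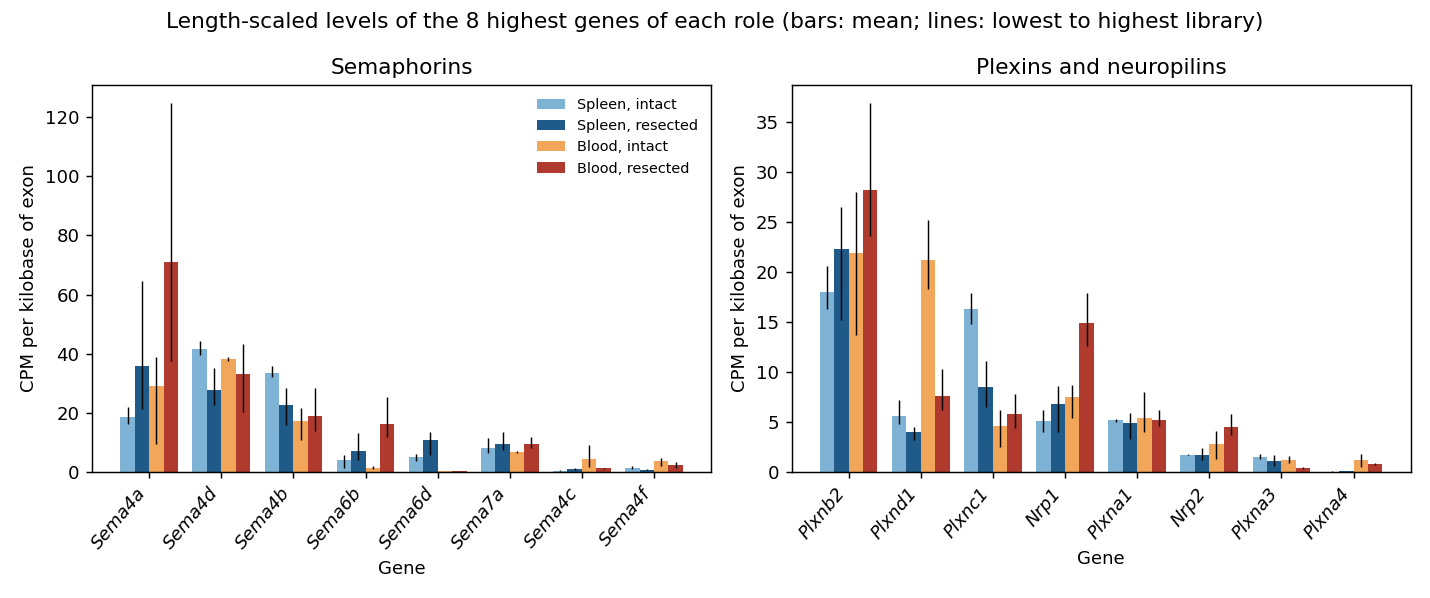
Mean level in CPM per kb of exon for the 8 highest ligands and the 8 highest receptors in each of the 4 groups. Bars are means of 3 libraries and lines run from the lowest to the highest library. Sema4a, Sema4b and Sema4d fill the upper places among ligands, and Plxnb2 is first among receptors in each group, from 18.0 CPM per kb in intact spleen to 28.2 in resected blood.

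The promoters of 4 members on which the comparisons turn are shown. Sema6d had the smallest p-values of the members between the tissues, Sema6b and Plxnd1 changed with resection in blood and kept this without any single library, and Sema3c had the largest called fold change with resection. The sequences were taken from RefSeq on GRCm38.p6, an assembly other than that of the counts, and run 5′ to 3′ on the strand of the gene from 250 bases before to 50 after its start. Capitals mark GC boxes, GGGCGG or its reverse complement CCGCCC, and in Plxnd1 also the core bound by PU.1, GAGGAA, PU.1 being a factor of myeloid cells. They are at chr2:124089719-124090018 on the plus strand for Sema6d, chr17:56140294-56140593 on the minus strand for Sema6b, chr5:17574566-17574865 on the plus strand for Sema3c, and chr6:115994956-115995255 on the minus strand for Plxnd1. For Sema6d and for Sema6b the more upstream of 2 listed starts is shown.
Sema6d: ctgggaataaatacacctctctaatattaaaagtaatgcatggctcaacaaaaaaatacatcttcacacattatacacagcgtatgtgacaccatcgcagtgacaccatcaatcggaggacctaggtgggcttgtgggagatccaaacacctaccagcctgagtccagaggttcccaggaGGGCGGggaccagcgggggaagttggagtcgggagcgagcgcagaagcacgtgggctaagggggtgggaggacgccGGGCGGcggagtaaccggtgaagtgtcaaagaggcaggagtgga
Sema6b: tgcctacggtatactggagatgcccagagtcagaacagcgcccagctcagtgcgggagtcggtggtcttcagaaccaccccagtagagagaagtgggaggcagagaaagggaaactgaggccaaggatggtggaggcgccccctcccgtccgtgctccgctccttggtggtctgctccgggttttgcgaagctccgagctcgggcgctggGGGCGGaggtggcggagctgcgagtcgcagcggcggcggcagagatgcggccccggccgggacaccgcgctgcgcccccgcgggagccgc
Sema3c: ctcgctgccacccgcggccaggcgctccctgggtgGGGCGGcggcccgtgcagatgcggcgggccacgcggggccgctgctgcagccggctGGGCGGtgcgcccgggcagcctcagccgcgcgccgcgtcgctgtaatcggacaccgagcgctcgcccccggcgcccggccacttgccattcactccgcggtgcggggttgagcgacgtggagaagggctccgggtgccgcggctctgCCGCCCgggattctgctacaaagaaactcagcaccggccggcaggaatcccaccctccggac
Plxnd1: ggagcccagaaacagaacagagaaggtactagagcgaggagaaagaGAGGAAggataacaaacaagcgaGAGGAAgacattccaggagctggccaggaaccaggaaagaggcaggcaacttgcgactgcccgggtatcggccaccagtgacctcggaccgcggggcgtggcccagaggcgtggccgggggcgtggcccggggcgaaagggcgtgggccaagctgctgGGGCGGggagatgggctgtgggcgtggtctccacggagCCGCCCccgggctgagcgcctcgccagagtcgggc

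These 4 windows held 2, 1, 3 and 2 GC boxes in the order printed, and their GC content was 54.3%, 69.0%, 75.7% and 67.0%. Of the 31 members, 26 were matched by symbol to 37 listed promoters. A GC box was found in 27 of them, or 73.0%, and in 35.7% of all 32851 promoters of the same length. The median GC content was 63.7% in the members' promoters and 52.7% in all. On either strand, TATAAA was found in 0 of 37 promoters against 13.6% of all, CCAAT in 18.9% against 37.4%, GAGGAA in 32.4% against 28.3%, and the AP-1 site TGACTCA in 5.41% against 5.2%. A match describes these letters only and says nothing about binding.

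Differences between groups were tested with edgeR's quasi-likelihood test over all 20135 features that passed a filter on low counts, with Benjamini-Hochberg adjustment over all of them. A gene was called when its adjusted p was under 0.05 and its log2 fold change exceeded 1 in size. Log2 fold changes are given with their standard error (SE). The 2 resection comparisons and the 2 tissue comparisons use the same 4 groups of libraries, so that each library enters more than 1 of them.

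Most secreted semaphorins of class 3 were near the limit of counting, and Sema3c was the member of this class that edgeR called with these settings. Sema3c signals through neuropilins and plexin D1 and is known from the development of vessels and the heart. It was counted 0, 0 and 2 times in the libraries of intact spleen and 1, 0 and 6 times in those of resected spleen. Intact blood had 0.193, 0.0771 and 0.262 CPM and resected blood 1.92, 4.01 and 4.39 CPM. Every blood library after resection was therefore above every other library. Sema3c rose with resection in blood by 4.25 on the log2 scale (SE 1.17, adjusted p = 0.0292), and was higher in blood than in spleen after resection by 5.87 (SE 1.29, adjusted p = 0.0128), where the spleen value rests on the few counts just given. The first call was lost without resected blood library 2 (4.15) or 3 (4.08) and without intact blood library 1 (4.37) or 2 (3.93), and the second without resected spleen library 1 (5.61). Without resected spleen library 3 the second value was 7.99.

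With all libraries kept and the settings described above, edgeR called the other class 3 members in none of the comparisons. Sema3f, which binds neuropilin 2, lay between 0.210 and 6.22 CPM, with 0.275, 0.308 and 0.743 CPM in intact and 2.23, 2.85 and 4.28 CPM in resected blood, groups that did not overlap (log2 fold change 2.81, SE 1.13, adjusted p = 0.103). In resected spleen it was at 0.210, 0.524 and 6.22 CPM, the last in library 3, and without that library the blood change of Sema3f, still 2.81, had an adjusted p of 0.0209. Sema3f was also called in blood by DESeq2 (2.86, adjusted p = 0.0270). Under other settings edgeR called it too, on the compared groups alone (2.81, adjusted p = 0.0345) and with a replicate block (3.00, adjusted p = 0.0469). Sema3b ranged from 0.131 to 1.17 CPM, Sema3d from 0.0210 to 0.642 CPM and Sema3g from 0.131 to 1.07 CPM, the last being called with resection in blood by DESeq2 (1.57, adjusted p = 0.0225) but not by edgeR (1.53, adjusted p = 0.0681). Sema3a, which binds neuropilin 1, had 0 to 7 counts in 11 libraries and 24 counts, or 0.590 CPM, in resected spleen library 3. Sema3e, the ligand that plexin D1 binds without a neuropilin, had at most 2 counts and Sema5b likewise, which is under the limit of 3 counts.

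**Figure D2:**
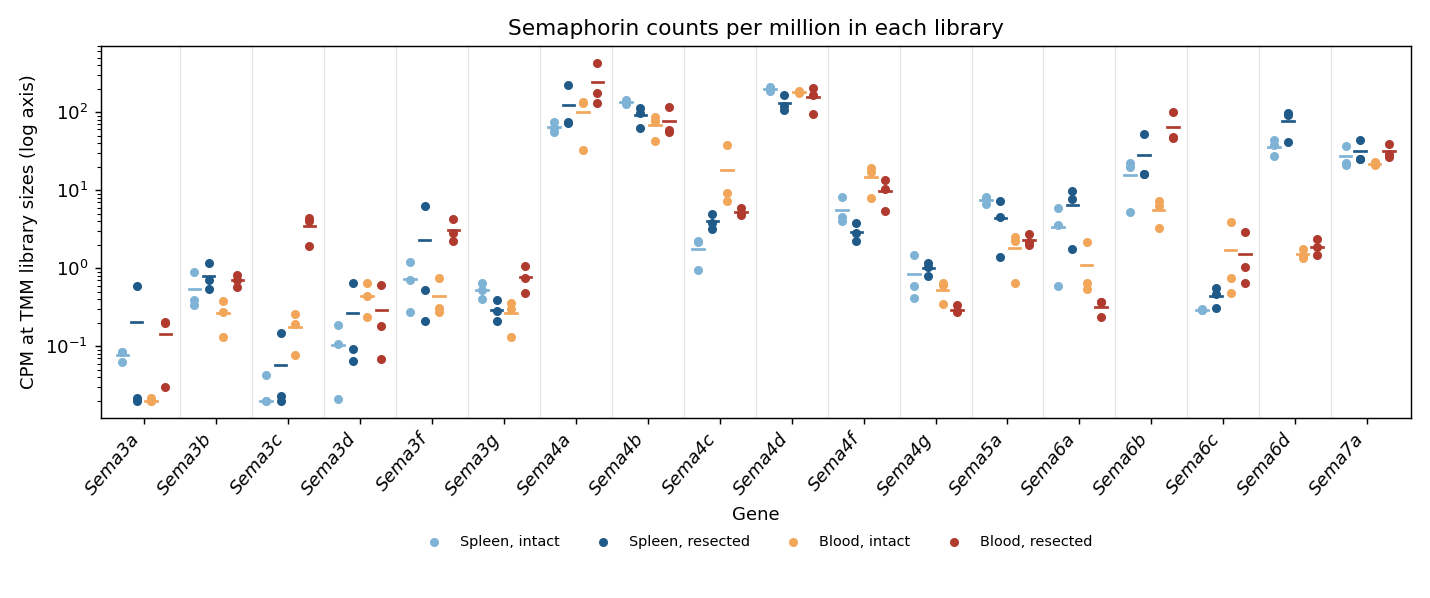
Level in CPM on a log axis of the 18 semaphorins other than the absent Sema3e and Sema5b, in the 4 groups. Dots are libraries and dashes group means, and values under 0.02 CPM are drawn at 0.02. Sema6d lies between 27.1 and 96.5 CPM in spleen and between 1.34 and 2.36 CPM in blood, and Sema3c is lifted only in the 3 libraries of resected blood, at 1.92 to 4.39 CPM.

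The membrane-bound class 4 held the abundant ligands, and these did not pass the test in any comparison. Sema4d, also known as CD100, is a ligand of plexin B1 and, on lymphocytes, of CD72. Its level was 209.9, 195 and 188 CPM in intact spleen, 167, 107 and 120.5 CPM in resected spleen, 180.1, 177 and 185 CPM in intact blood and 95.8, 168 and 205 CPM in resected blood. The splenic groups did not overlap, with lower values after resection (log2 fold change -0.59, SE 0.25, adjusted p = 0.223), while the blood groups did. Sema4b had 144, 129 and 133 CPM in intact spleen, 114, 97.1 and 63.4 CPM in resected spleen, 87.2, 77.8 and 43.2 CPM in intact blood and 115, 58.9 and 56.3 CPM in resected blood. All intact spleen libraries were above all other Sema4b values, yet the resection difference in spleen was -0.57 (SE 0.34, adjusted p = 0.379) and the tissue difference in intact animals -0.96 (SE 0.34, adjusted p = 0.109).

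Sema4a, a costimulator of T cells made by dendritic cells and other antigen-presenting cells, varied widely between libraries of the same group. It was at 61.8, 74.8 and 55.2 CPM in intact spleen, at 74.0, 73.0 and 221 CPM in resected spleen, at 133, 133 and 32.8 CPM in intact blood and at 129, 176 and 428 CPM in resected blood. In 3 of the 4 groups library 3 lay at least 2-fold away from the other libraries, above them after resection and below them in intact blood. The log2 fold changes of 1.29 with resection in blood (SE 0.64, adjusted p = 0.174) and 0.94 in spleen (SE 0.63, adjusted p = 0.435) did not exceed this spread. Neutrophil markers summed to 3923 CPM in resected blood library 3 and 4000 CPM in resected spleen library 3, against 874 to 922 and 1537 to 1564 CPM in the other libraries of these groups, and their part in the Sema4a values was not tested.

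In the test described above, the less abundant class 4 members were each called in 1 of the 2 tissue comparisons. These were the intact tissues for Sema4c and the resected tissues for Sema4f and Sema4g. Sema4c, a ligand of plexin B2, had 0.947, 2.21 and 2.17 CPM in intact spleen and 3.85, 3.21 and 4.89 CPM in resected spleen. In blood it had 9.19, 7.37 and 38.4 CPM before and 5.07, 4.79 and 5.995 CPM after resection. All intact blood libraries lay above all others, library 3 by far. Sema4c was higher in blood than in spleen of intact animals by 3.36 on the log2 scale (SE 0.63, adjusted p = 0.0128), a call that was lost without intact spleen library 1 (3.16) and in a fit of these groups alone (3.37, adjusted p = 0.0728). Without intact blood library 3 the difference was 2.32. After resection the tissues overlapped for Sema4c (0.41, SE 0.58, adjusted p = 0.672). Its change with resection in blood, -1.79 (SE 0.60, adjusted p = 0.0575), did not pass. It was -0.66 without intact blood library 3 and passed without intact blood library 1 (-2.04) or 2 (-2.11), when library 3 was 1 of the 2 that remained.

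Sema4f is found mainly in the nervous system. Its values were 4.57, 8.18 and 4.09 CPM in intact spleen, 3.78, 2.84 and 2.21 CPM in resected spleen, 17.1, 19.0 and 8.04 CPM in intact blood and 13.4, 10.5 and 5.40 CPM in resected blood. Blood lay above spleen without overlap after resection, with a log2 difference of 1.73 (SE 0.45, adjusted p = 0.0257), whereas in intact animals the lowest blood library was just under the highest of spleen (1.39, SE 0.45, adjusted p = 0.0812). The call after resection was lost without resected spleen library 2 (1.80) or 3 (1.66) or resected blood library 1 (1.53) or 2 (1.76), and in intact animals a call was gained without blood library 3 (1.79). Sema4g, another ligand of plexin B2, was at 0.589, 0.417 and 1.49 CPM in intact and 1.05, 0.786 and 1.18 CPM in resected spleen, and at 0.605, 0.642 and 0.350 CPM in intact and 0.336, 0.272 and 0.281 CPM in resected blood. After resection its blood values, which rest on 8 to 11 counts, were lower than those of spleen by -1.75 (SE 0.54, adjusted p = 0.0469). That call was lost when any library other than intact spleen 3 or intact blood 3 was left out, with values from -1.80 to -1.52. The intact libraries among these are not part of the comparison, and without 1 of them the value was -1.65. In intact animals the tissues overlapped for Sema4g (-0.64, SE 0.52, adjusted p = 0.489).

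Sema5a, which binds plexin B3, was not called by edgeR with the settings above. It ranged from 6.76 to 8.09 CPM in intact spleen, from 1.38 to 7.17 CPM in resected spleen, from 0.655 to 2.54 CPM in intact blood and from 2.00 to 2.78 CPM in resected blood. The intact tissues did not overlap, with lower values in blood (log2 difference -2.06, SE 0.61, adjusted p = 0.0624). The test passed without resected spleen library 3 (-1.96), which is not part of this comparison. DESeq2 called the difference (-1.98, adjusted p = 0.0110). So did edgeR with at least 10 counts required in every library (-2.06, adjusted p = 0.0473).

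Class 6 contained the member with the smallest p-values between the tissues. Sema6d is a ligand of plexin A1 and is known from dendritic cells and macrophages. Its level was 27.1, 44.1 and 37.6 CPM in intact spleen and 92.7, 96.5 and 41.9 CPM in resected spleen. In blood it was 1.76, 1.34 and 1.44 CPM before and 1.86, 1.46 and 2.36 CPM after resection. The lowest splenic library, at 27.1 CPM, was thus far above the highest blood library, at 2.36 CPM. Sema6d was lower in blood by -4.58 on the log2 scale in intact animals (SE 0.37, adjusted p = 0.000325) and by -5.34 after resection (SE 0.38, adjusted p = 7.45e-05), and without any single library the values stayed between -4.66 and -4.31 and between -5.54 and -5.05. These were the smallest adjusted p-values among the members in both comparisons.

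With resection in spleen Sema6d gave a log2 fold change of 1.09 (SE 0.32, adjusted p = 0.0975), and library 3 of resected spleen, at 41.9 CPM, lay within the range of intact spleen. DESeq2 on the same counts called it (1.07, adjusted p = 0.019), while no other alternative did, and its adjusted p reached 0.322 with a library left out. In blood the change was 0.33 (SE 0.34, adjusted p = 0.525). Red pulp macrophage markers were also higher in spleen than in blood of the same condition. They summed to 1247 to 1885 CPM in intact and 2613 to 5067 CPM in resected spleen. In blood they summed to 162 to 606 CPM before and 1677 to 2062 CPM after resection. Resected blood thus overlapped intact spleen in these markers, whereas for Sema6d it did not. The lowest of the resected spleen libraries was library 3 again. The part of these cells in the Sema6d values was not tested.

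Sema6b, a ligand of plexin A4, had 19.8, 22.1 and 5.28 CPM in intact spleen and 16.3, 16.1 and 51.8 CPM in resected spleen. In intact blood it was at 7.27, 6.29 and 3.25 CPM and in resected blood at 48.2, 46.7 and 99.9 CPM. Each resected blood library was several times above each intact one, and the splenic groups overlapped. Sema6b rose with resection in blood by 3.54 (SE 0.69, adjusted p = 0.00696), and the value was between 3.09 and 3.79 without any single library, the call being kept each time. In spleen the change was 0.84 (SE 0.62, adjusted p = 0.485). The difference between these effects was 2.70 (SE 0.89, unadjusted p = 0.013, adjusted p = 0.193), so that it is not shown that blood and spleen differed in their response.

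Sema6a, a ligand of plexins A2 and A4, was at 0.589, 3.55 and 5.98 CPM in intact spleen and at 7.73, 9.63 and 1.77 CPM in resected spleen. Blood had 0.550, 0.642 and 2.14 CPM before and 0.366, 0.238 and 0.366 CPM after resection. The splenic values spread widely, but after resection all of them exceeded those of blood, by -4.29 for blood relative to spleen (SE 0.98, adjusted p = 0.0154). Without resected spleen library 2 (-3.76) or resected blood library 1 (-4.29), 2 (-4.03) or 3 (-4.28) the call was lost. Sema6c, whose receptor is plexin A1, lay between 0.292 and 3.91 CPM and was not called by edgeR. DESeq2 called it between the intact tissues (2.59, adjusted p = 0.0174). Its blood values were above those of spleen without overlap in intact animals (2.53, SE 0.84, adjusted p = 0.0887), where the value was 1.16 without intact blood library 3, at 3.91 CPM, and after resection (1.77, SE 0.81, adjusted p = 0.155).

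Sema7a, which acts through integrin beta 1 on monocytes and through plexin C1, was even across the groups. It was at 21.2, 22.6 and 37.3 CPM in intact spleen, 44.2, 24.8 and 25.2 CPM in resected spleen, 20.9, 21.7 and 23.1 CPM in intact blood and 38.9, 27.0 and 29.0 CPM in resected blood. Only in blood did the groups not overlap, and the log2 fold change there was 0.53 (SE 0.28, adjusted p = 0.204).

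Among the receptors, both neuropilins were higher in blood than in spleen after resection. Nrp1 is the coreceptor of Sema3a and of the vascular endothelial growth factors. It was at 14.4, 18.3 and 22.1 CPM in intact spleen, at 28.3, 31.0 and 14.2 CPM in resected spleen, at 30.6, 19.3 and 31.2 CPM in intact blood and at 51.5, 64.4 and 45.1 CPM in resected blood. Every resected blood library exceeded every other library. The log2 difference from resected spleen was 1.13 (SE 0.31, adjusted p = 0.0308). The change with resection in blood was 0.99 (SE 0.31, adjusted p = 0.0463), just under the limit on the fold change, which it passed at 1.02 with DESeq2 and with RLE factors. The tissue call was lost without resected spleen library 1 (1.34) or 3 (0.96) or resected blood library 1 (1.26) or 2 (1.06).

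Nrp2, the coreceptor of Sema3f, had 17.4, 18.1 and 18.3 CPM in intact spleen and 25.0, 16.2 and 12.8 CPM in resected spleen. In blood it had 30.6, 42.9 and 13.6 CPM before and 38.3, 40.0 and 60.0 CPM after resection. Intact blood, from 13.6 to 42.9 CPM, overlapped each other group. After resection blood exceeded spleen by 1.36 (SE 0.39, adjusted p = 0.0361), a call that was lost without resected spleen library 2 (1.39) or 3 (1.26) and without resected blood library 1 (1.57), 2 (1.53) or 3 (1.23). In intact animals the difference was 0.69 (SE 0.38, adjusted p = 0.293).

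The class A plexins behaved differently from each other. Plxna1, the receptor of Sema6d, is known to associate with Trem2 and Tyrobp in myeloid cells. Its level was 45.0, 47.3 and 46.8 CPM in intact spleen, 49.4, 52.8 and 29.3 CPM in resected spleen, 37.4, 36.0 and 72.0 CPM in intact blood and 42.4, 41.8 and 56.1 CPM in resected blood. All groups overlapped, and its log2 differences in the 4 comparisons were between -0.08 and 0.09 with an SE of 0.29. Plxna2, a receptor of Sema6a, had 4 to 30 counts per library and was not called.

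Plxna3 and Plxna4 are signalling partners of the neuropilins. Plxna3 was at 12.1, 8.95 and 9.94 CPM in intact spleen, at 11.96, 6.40 and 4.20 CPM in resected spleen, at 6.44, 7.01 and 11.3 CPM in intact blood and at 3.08, 3.19 and 1.91 CPM in resected blood. The resected blood libraries lay below all others. Plxna3 fell with resection in blood by 1.60 on the log2 scale (SE 0.40, adjusted p = 0.0208), and was lower than in resected spleen, at -1.46 (SE 0.40, adjusted p = 0.0313). The first call was lost without resected blood library 2 (-1.70) or 3 (-1.35). The second was lost without any library other than resected spleen 3 or intact blood 3 and shrank to -0.86 without resected spleen library 1. The intact libraries among these are not part of that comparison. Without 1 of them the Plxna3 value was -1.36, and the median of all features moved from -0.14 to -0.04.

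Plxna4 marked the blood. In intact spleen it was at 0.547, 0.104 and 0.234 CPM and in resected spleen at 0.490, 0.568 and 0.492 CPM, while intact blood had 22.5, 15.7 and 6.36 CPM and resected blood 11.6, 8.49 and 8.47 CPM. The lowest blood library stood far above the highest of spleen. Plxna4 was higher in blood by 5.64 in intact animals (SE 0.66, adjusted p = 0.00196) and by 4.20 after resection (SE 0.62, adjusted p = 0.00235), calls that were kept without any single library, at 5.27 to 6.53 and 4.13 to 4.38. The splenic values rest on 5 to 26 counts. An antisense RNA of the locus, Plxna4os1, had 15 to 27 counts in spleen and 30 to 110 in blood, and whether the counting used strand is not given in the sources used here, so that reads could be shared.

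**Figure D3:**
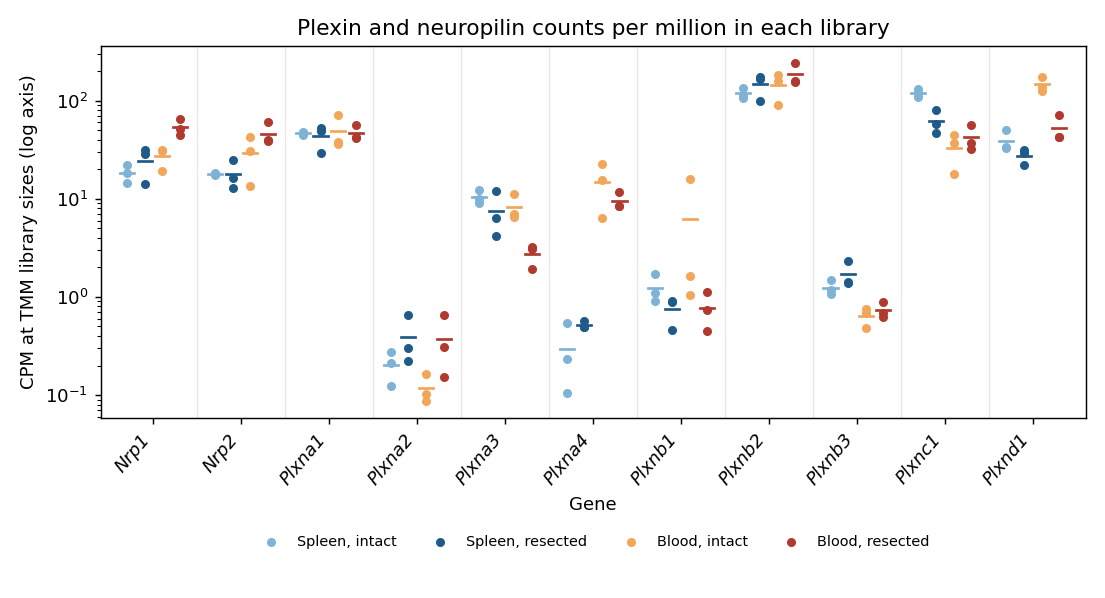
Level in CPM on a log axis of the 9 plexins and 2 neuropilins in the 4 groups. Dots are libraries and dashes group means. Plxna4 lies between 0.104 and 0.568 CPM in spleen and between 6.36 and 22.5 CPM in blood, Plxnd1 is highest in intact blood at 126 to 174 CPM, and the Plxnb1 mean of intact blood is set by library 3 at 15.9 CPM.

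The class B plexins are the receptors of class 4 semaphorins. Plxnb2, the most abundant receptor, binds Sema4c, Sema4d and Sema4g. It had 107, 135 and 113 CPM in intact spleen, 165, 174 and 99.5 CPM in resected spleen, 183, 158 and 89.6 CPM in intact blood and 158, 155 and 242 CPM in resected blood. The groups overlapped in each comparison. Its log2 fold change with resection was 0.36 in blood (SE 0.30, adjusted p = 0.423) and 0.30 in spleen (SE 0.30, adjusted p = 0.620), and the tissue differences were 0.28 in intact animals (SE 0.30, adjusted p = 0.622) and 0.34 after resection (SE 0.30, adjusted p = 0.469). Under the alternative settings other than leaving out a library its adjusted p was 0.322 or higher in these 4 comparisons. The paper, by contrast, names Plexin-B2 among the top-scoring genes activated by resection in blood monocytes. How those scores were obtained is not given in the sources used here, and the cause of the difference was not tested.

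Plxnb1, the main receptor of Sema4d, was at 0.905, 1.71 and 1.09 CPM in intact spleen, at 0.911, 0.458 and 0.885 CPM in resected spleen, at 1.05, 1.64 and 15.9 CPM in intact blood and at 0.732, 1.12 and 0.450 CPM in resected blood. A single library, intact blood 3, stood above the rest, and the blood groups overlapped. Plxnb1 was called lower with resection in blood, at -3.01 (SE 0.95, adjusted p = 0.0485). Without intact blood library 3 the value was -0.81 (adjusted p = 0.299), and the call was lost without any library other than intact blood 1 or 2. The spleen libraries are not part of this comparison, and without 1 of them the value was between -3.01 and -3.00. Plxnb3, a receptor of Sema5a, had 1.47, 1.17 and 1.06 CPM in intact spleen and 1.38, 2.31 and 1.43 CPM in resected spleen. In blood it had 0.688, 0.745 and 0.481 CPM before and 0.885, 0.679 and 0.619 CPM after resection, below all splenic values. The difference after resection was called at -1.23 (SE 0.38, adjusted p = 0.0476), and this was lost without any library other than intact blood 3, at -1.29 to -0.84, the last without resected spleen library 2. The intact libraries among these are not part of the comparison, and without 1 of them the value was -1.13. In intact animals the difference was -0.95 (SE 0.38, adjusted p = 0.146).

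Plxnc1, the plexin that binds Sema7a, was highest in intact spleen. It was at 131, 119 and 108 CPM in intact and at 80.6, 57.4 and 47.2 CPM in resected spleen, and at 36.8, 45.0 and 17.8 CPM in intact and 36.9, 32.3 and 56.9 CPM in resected blood. All intact spleen libraries lay above all others. Plxnc1 was lower in blood than in spleen of intact animals by -1.84 (SE 0.35, adjusted p = 0.0129), a call that was lost without intact spleen library 1 (-1.67) or 2 (-1.74). The splenic change with resection was -0.95 (SE 0.34, adjusted p = 0.152), and after resection the tissues overlapped (-0.55, SE 0.34, adjusted p = 0.281). B-cell markers were also highest in intact spleen, with 4987 to 5669 CPM in intact spleen, 1317 to 4424 in resected spleen, 580 to 2634 in intact blood and 827 to 1951 in resected blood, and their part in the Plxnc1 values was not tested.

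Plxnd1, the receptor of Sema3e and, with neuropilins, of Sema3c, had the smallest p-value of the members for resection in blood. It had 33.7, 33.0 and 49.5 CPM in intact spleen and 31.2, 21.8 and 29.0 CPM in resected spleen. Intact blood had 174, 138 and 126 CPM and resected blood 70.7, 42.9 and 42.7 CPM. The intact blood libraries were above all others, including library 3, which did not stand apart here. Plxnd1 fell with resection in blood by 1.49 on the log2 scale (SE 0.26, adjusted p = 0.00412), with values between -1.76 and -1.30 without any single library. It was higher in intact blood than in intact spleen by 1.91 (SE 0.26, adjusted p = 0.00293), with values between 1.82 and 2.23. After resection the tissue difference was 0.93 (SE 0.25, adjusted p = 0.0300), under the limit on the fold change, and it passed 1 without 10 of the 12 single libraries, at 1.03 to 1.16. It was also called by DESeq2 (1.04, adjusted p = 0.00107). With RLE factors, no filter, entries as deposited or haemoglobin genes left out, edgeR called it at 1.01 to 1.04. In spleen the change with resection was -0.50 (SE 0.25, adjusted p = 0.287), and its difference from that in blood, -0.98 (SE 0.36, unadjusted p = 0.020, adjusted p = 0.219), did not pass.

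In blood edgeR called 5 members with resection. The ligands Sema6b and Sema3c were higher, and the receptors Plxnd1, Plxna3 and Plxnb1 lower, Plxnb1 at -0.81 without intact blood library 3. This is 5 of 31 members, or 16.1%, and 5 of the 28 tested, against 13.9% of all features tested. Of the 17 tested ligands 2 were called, both higher, against 7.8% of features called higher, and of the 11 receptors 3, all lower, against 6.11% called lower. An unadjusted p under 0.05 was reached by 11 members, against 35.9% of all features. The libraries of the groups did not overlap for 13 of the 31 members, 8 higher, the untested Sema3a among them, and 5 lower, against 38.4% of features tested. The median log2 fold change was 0.33 over the 17 tested ligands and 0.19 over the 11 receptors, and -0.10 over all features. Of the called members, Plxnd1 and Sema6b were the ones kept without resected blood library 2 or 3, when 2 members were called, and 1770 and 1627 of all features against 2801 with every library. DESeq2 called 9 members, against 18.4% of features, and among the 4 added were a receptor that was higher, Nrp1, and a ligand that was lower, Sema4c, so that the directions did not divide ligands from receptors there.

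The summed levels of cell type markers in the blood libraries differed with resection as well, which does not separate numbers of cells from RNA per cell. Markers of peritoneal macrophages summed to 3572 to 7232 CPM in intact and 18781 to 23842 CPM in resected blood, platelet markers to 82.5 to 301 and 812 to 899 CPM, and neutrophil markers to 47.5 to 123 and 874 to 3923 CPM. T-cell markers went the other way, from 756 to 2288 CPM to 131 to 266 CPM, with 7 of the 8 genes of that list present in the tables. All 8 neutrophil genes, all 8 peritoneal macrophage genes and all 6 platelet genes were detected in both groups. Their part in the changes of Sema6b, Sema3c, Plxnd1, Plxna3 and Plxnb1 was not tested.

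Resection in spleen called 0 of 28 tested members in edgeR's quasi-likelihood test, against 1.38% of features tested. The largest evidence was for Sema6d (1.09, unadjusted p = 0.0062), Plxnc1 (-0.95, unadjusted p = 0.019) and Sema4d (-0.59, unadjusted p = 0.042), which were the 3 members with an unadjusted p under 0.05, against 20.8% of features, and DESeq2 called 1 member, Sema6d, against 7.77% of features. The libraries did not overlap for 8 members, against 35.1% of all features: Sema4c and Sema6c were higher, and Plxnc1, Plxnd1, Sema3g, Sema4b, Sema4d and Sema4f lower. The median over the 28 tested members was 0.36 and over all features 0.05.

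Blood and spleen of intact animals differed in 5 of 28 tested members, against 7.35% of features tested. Plxna4, Plxnd1 and Sema4c were higher in blood and Sema6d and Plxnc1 lower, against 3.86% and 3.49% of features in these directions. An unadjusted p under 0.05 was reached by 13 members, against 25.3% of all features. The libraries did not overlap for 14 of the 31 members, 6 higher and 8 lower in blood, the untested Sema3a among the lower, against 34.5% of features tested. The median over the tested members was -0.22, and -0.02 over all features. Without intact spleen library 1, 3 members were called, Sema4c and Plxnc1 being lost, and 531 of all features against 1480. DESeq2 called 10 members, against 12.8% of features.

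After resection the tissues differed in 10 of 28 tested members, against 13.2% of features tested. Higher in blood were Plxna4, Sema3c, Sema4f, Nrp1 and Nrp2, against 6.28% of features, and lower were Sema6d, Sema6a, Plxna3, Sema4g and Plxnb3, against 6.87%. An unadjusted p under 0.05 was reached by 12 members, against 33.9% of all features, and the libraries did not overlap for 13, against 42.4%. The medians were 0.19 over the tested members and -0.14 over all features. The count fell to 6 without resected spleen library 1 or resected blood library 3, to 4 without resected spleen library 2 or resected blood library 2, and to 3 without resected blood library 1, and it was 13 without intact blood library 3. The calls over all features, 2648 with every library, were 1579, 1607, 1450, 1551, 1947 and 3625 in the same order. DESeq2 called 12 members, against 18% of features.

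The tissues also differed in the summed markers of other cells. Erythroid markers summed to 124182 to 529537 CPM in the blood and 711 to 32686 CPM in the splenic libraries, and platelet markers reached 8.45 to 18.2 CPM in intact and 11.2 to 29.5 CPM in resected spleen. Peritoneal macrophage markers were at 355 to 504 and 359 to 1823 CPM in intact and resected spleen, T-cell markers at 180 to 345 and 80.2 to 114 CPM, and neutrophil markers at 351 to 822 and 1537 to 4000 CPM. Conventional dendritic cell markers had 190 to 213 and 97.7 to 182 CPM in intact and resected spleen and 35.2 to 135 and 44.0 to 62.6 CPM in intact and resected blood, and plasmacytoid dendritic cell markers 135 to 176, 124 to 179, 94.2 to 174 and 114 to 137 CPM in the same order. Endothelial markers had 189 to 218, 110 to 237, 83.4 to 123 and 57.6 to 85.1 CPM, with Emcn at 0 in intact blood. Their part in the tissue differences of Sema6d, Plxna4 and the other called members was not tested.

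**Figure D4:**
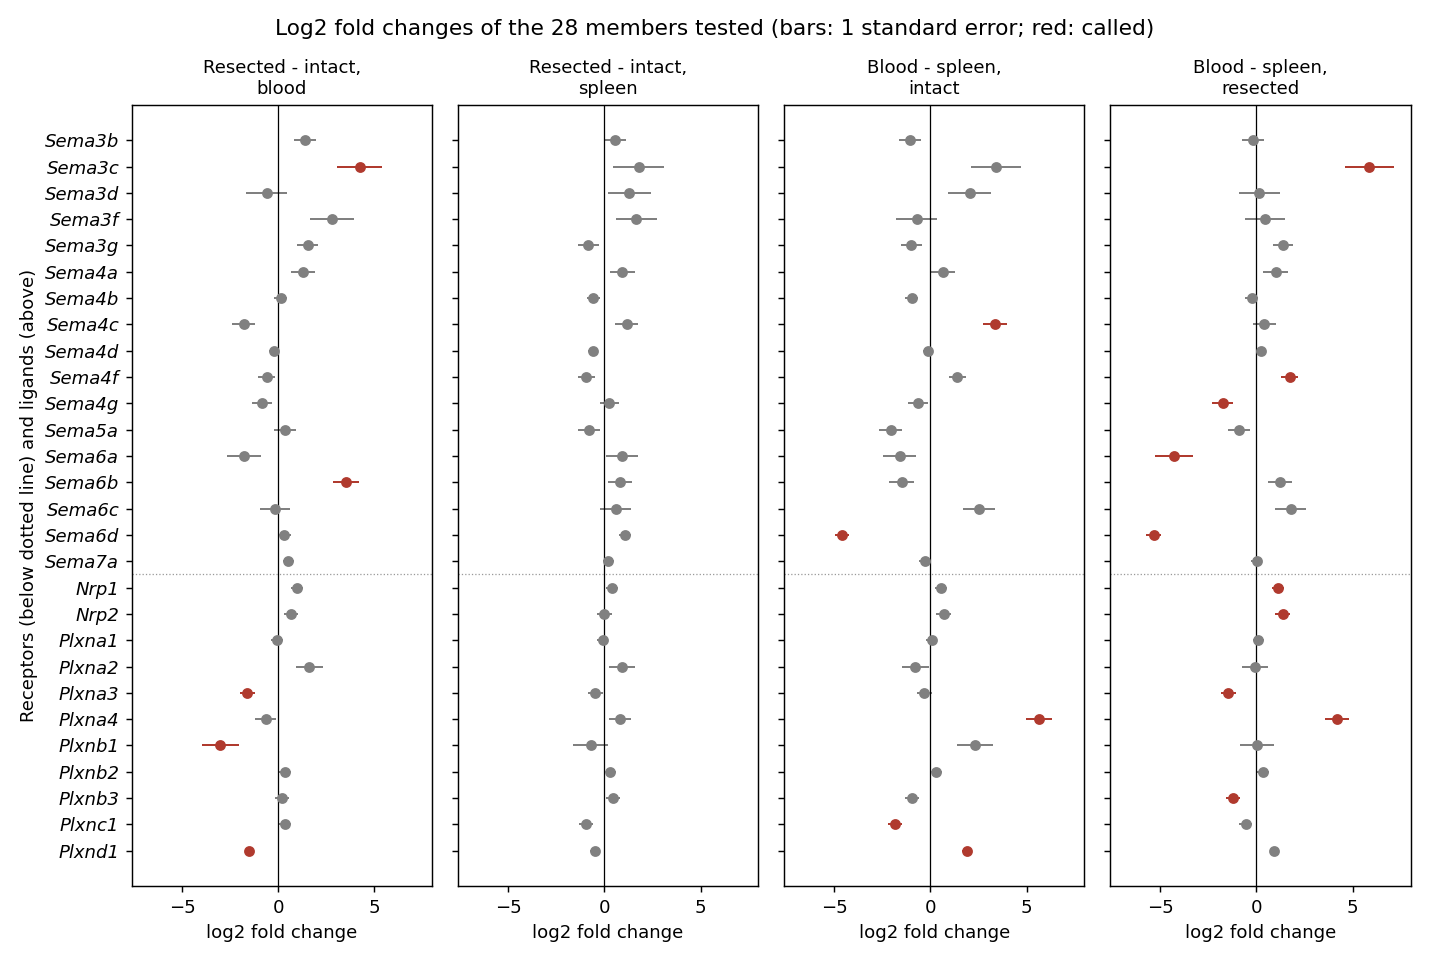
Log2 fold changes of the 28 tested members in the 4 comparisons. Points are estimates, bars are 1 SE, and red marks the called members. In blood 5 members are red with resection and in spleen 0, and in both tissue comparisons Sema6d, at -4.58 and -5.34, lies farthest to the left, while farthest to the right are Plxna4 in intact animals, at 5.64, and Sema3c after resection, at 5.87.

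Whether the response to resection differed between the tissues was tested as an interaction. It called 0 of 28 tested members, against 0.283% of features tested, with 5 members at an unadjusted p under 0.05, against 17.3% of features, and 3 called by DESeq2, Sema3g, Sema4c and Sema6b, against 5.78% of features.

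The other genes of the pathway were followed with lists of 64 genes, of which 58 were tested. Among the 17 coreceptors and other partners, 15 of them tested, 5 rose and 1 fell with resection in blood, against 7.8% and 6.11% of all features. Itgb1, the integrin beta 1 chain through which Sema7a acts, ranged from 383 to 388 CPM in intact and from 766 to 850.0 CPM in resected blood, without overlap, and rose by 1.05 (SE 0.14, adjusted p = 0.00148). Tyrobp, the adaptor of Trem2, ranged from 66.7 to 204 and from 442 to 585 CPM and rose by 1.82 (SE 0.35, adjusted p = 0.00696). Trem2 itself, at 2.29 to 5.48 and 15.0 to 25.6 CPM, rose by 2.32 (SE 0.46, adjusted p = 0.00718). Flt4, a receptor of vascular endothelial growth factors that pairs with neuropilin 2, rose by 2.33 (SE 0.55, adjusted p = 0.0153). It had 0.109 to 0.193 CPM in intact and 0.458 to 0.917 CPM in resected blood. The intact values of Flt4 were near the limit of counting, which was 0.0655 to 0.102 CPM in blood. In spleen 0 of these genes passed edgeR's test with resection, and 5 had an unadjusted p under 0.05, against 20.8% of features.

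Between the tissues, 2 partners were higher and 2 lower in blood of intact animals, and 2 were higher and 3 lower after resection. Over all features these shares were 3.86%, 3.49%, 6.28% and 6.87%. Itgb1 was higher in blood by 1.38 (SE 0.14, adjusted p = 0.00107) and 2.16 (SE 0.14, adjusted p = 5.78e-05), and Trem2 by 1.89 (SE 0.45, adjusted p = 0.0310) and 2.43 (SE 0.46, adjusted p = 0.00669). Cd72, the receptor of Sema4d on B cells, ranged from 348 to 485 CPM in intact spleen and from 16.2 to 64.2 CPM in intact blood, a difference of -3.13 (SE 0.55, adjusted p = 0.0101), and differed by -2.51 after resection (SE 0.54, adjusted p = 0.0119). The part of B cells in the Cd72 values was not tested. Erbb2, a receptor kinase that associates with plexin B1, was lower in blood by -4.87 (SE 0.72, adjusted p = 0.00441) and -5.12 (SE 0.74, adjusted p = 0.00209), with at most 0.165 CPM in a blood library. Of the 5 other ligands of neuropilins, 4 of them tested, Vegfb was lower in blood after resection by -1.98 (SE 0.29, adjusted p = 0.00219), and no other call was made by edgeR in the 4 comparisons, in which 0, 3, 2 and 1 of them had an unadjusted p under 0.05 in the order resection in blood, resection in spleen, intact tissues and tissues after resection, against 35.9%, 20.8%, 25.3% and 33.9% of features.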

How the data were processed

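Libraries of CD115-positive monocytes were grouped by their titles, and the methods, not the labels, gave strain and sex. For each library the authors deposited a table of estimated counts, not scaled to depth or length. The submitters' processing notes name STAR and GRCm39, and the counting tool, its use of strand and the annotation are not given in the sources used here. The methods name an Illumina HiSeq sequencer and the labels a strand-specific DNBSEQ library, which was not resolved. Each table had 67088 entries, of which 24256 were symbols and 40274 accessions. Of the accessions, 25340 were matched to symbols through the RefSeq gene table of GRCm38.p6, used for names, and summed per gene, which added entries to 6 members, at most 72 counts in a library for Nrp1. Unassigned transcripts, 1.75% to 4.33% of a library, were left out. How reads shared by overlapping genes were counted is not given, so Plxna4 is uncertain.

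Counts were rounded and tested in R 4.3.3 with edgeR 4.0.16 (filterByExpr, TMM, robust glmQLFit and glmQLFTest) on all 12 libraries in 4 groups without covariates, with a common dispersion of 0.312. TMM factors ran from 1.14 to 1.26 in spleen and from 0.661 to 1.09 in blood. The SE is the absolute log2 fold change divided by the square root of F. Counts of libraries of the same group differed beyond sampling, with a chi-square of 19.7 to 560.4 for each degree of freedom, so that none was counted as a copy. The test was also run on simulated counts, the outcome of which is not used here. Levels per kb used union exon lengths of GENCODE M21 on GRCm38, which need not be those of the counting.

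The members, the pathway lists (coreceptors and other partners, intracellular transducers, proteases, other neuropilin ligands), the marker lists (monocyte, B cell, T cell, neutrophil, peritoneal macrophage, red pulp macrophage, endothelial, plasmacytoid and conventional dendritic cell, platelet, erythroid) and the tests were chosen with earlier results of these data known. Library values are given for members called in a comparison or with a group mean of at least 10 CPM, and of the pathway lists the 4 called genes with the smallest p in each comparison are named. Alternatives were DESeq2 1.42.0, RLE factors, no filter, at least 10 counts in every library, entries as deposited, haemoglobin genes left out, no fold limit, a replicate block, only the compared groups, and each library left out in turn.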

Additional observations from a re-analysis of the deposited data

Results flagged for a closer look

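For 2 members the libraries of blood and spleen moved in opposite directions with resection, every resected library lying on 1 side of every intact one in each tissue. How many of all features did so was not counted. Groups that did not overlap were found for 38.4% of features in blood and 35.1% in spleen, so that these 2 members are not shown to be unusual. Sema3g was at 0.303, 0.360 and 0.131 CPM in intact and 1.07, 0.476 and 0.760 CPM in resected blood (log2 fold change 1.53), and at 0.652, 0.522 and 0.404 CPM in intact and 0.210, 0.284 and 0.393 CPM in resected spleen (-0.83). The difference of the effects was 2.36 (SE 0.75, unadjusted p = 0.0104, adjusted p = 0.184 by edgeR), and these values rest on 6 to 35 counts. Sema4c was lower in each blood library and higher in each splenic library after resection (-1.79 and 1.16), a difference of -2.96 (SE 0.84, unadjusted p = 0.00541, adjusted p = 0.158). Without intact blood library 3, at 38.4 CPM, the change in blood was -0.66 and the difference -1.82. Neither passed the test of the difference over all features, and DESeq2 called both, against 5.78% of features.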

How the results depend on the processing

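With all libraries kept, DESeq2 called 9 members with resection in blood, 1 in spleen, 10 between the intact tissues and 3 for the difference of the resection effects, against 18.4%, 7.77%, 12.8% and 5.78% of all features. After resection, 6 members differed between the tissues when at least 10 counts were required in every library, and 5 with a replicate block. That filter took the called members Sema3c, Plxna4, Sema6a and Sema4g out of the test, with lowest counts of 0, 5, 7 and 8. The called members still tested, Nrp1, Nrp2, Plxna3, Plxnb3, Sema4f and Sema6d, kept their calls. Leaving out each library in turn gave 2 to 5 called members with resection in blood, 0 in spleen, 3 to 7 between the intact tissues, 3 to 13 between the tissues after resection and 0 for the difference of effects. The cause of the other shifts was not tested. Of the 240 values of called members with a library left out, 172 kept the call and 68 lost it, and of 174 values under the other alternatives 153 kept it and 21 lost it, none with a change of sign. Of the pairs not called, 31 were followed, those with an unadjusted p under 0.05 and those of Sema6d and Plxnb2. Among these Plxnb2 turned its direction in the difference of effects, from 0.06 with all libraries to -0.06 without intact spleen library 2, to -0.16 without library 3 of resected spleen or of resected blood and to -0.19 without that of intact blood. Its highest value there was 0.31, without intact blood library 1. Whether the replicate numbers pair the libraries was not settled. Deviations of libraries with the same number correlated between -0.046 and 0.189, and between 0.042 and 0.189 for the resected tissues. Each library was set against the 3 of the other group, in both directions, so that the 24 checks are not independent. In 13 of 24 the correlation was highest with the library's own number, which was 1 of the 3. With the replicate block the calls of Plxnb1 in blood (-2.45) and of Nrp1, Nrp2, Plxna3, Plxnb3 and Sema4g between the resected tissues were lost. Sema3f in blood (3.00, adjusted p = 0.0469) and Sema4b (-1.04) and Sema4f (1.33) between the intact tissues were gained. RLE factors moved the median of all features between the resected tissues from -0.14 to -0.03, and no named member other than Plxnb3 (-1.11) and Sema4g (-1.64) lost a call there. Members under about 50 counts, such as Sema3d, Plxna2 and Sema4g in blood, rest on few counts, and the part of depth in their results was not tested.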

Other observations

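Of the 36 intracellular transducers of plexin signalling, 35 of them tested, 3 rose with resection in blood and 0 fell, against 7.8% and 6.11% of all features. Rap1b, a small GTPase acted on by plexins, ranged from 294 to 569 CPM in intact and from 1044 to 1358 CPM in resected blood and rose by 1.46 on the log2 scale (SE 0.24, adjusted p = 0.00373). Rnd1, which binds the plexin cytoplasmic part, ranged from 0.605 to 2.53 and from 9.52 to 75.6 CPM and rose by 4.69 (SE 0.92, adjusted p = 0.00741). Dpysl3, a collapsin response mediator, marked blood as Plxna4 did: it had 0.147 to 0.250 CPM in intact spleen, 0.187 to 0.541 CPM in resected spleen, 8.74 to 11.9 CPM in intact blood and 18.9 to 30.5 CPM in resected blood. It rose with resection in blood by 1.28 (SE 0.35, adjusted p = 0.0280) and exceeded spleen by 5.57 in intact animals (SE 0.43, adjusted p = 0.00024) and by 6.08 after resection (SE 0.44, adjusted p = 7.45e-05). Its relative Dpysl2 was higher in blood by 1.01 (SE 0.20, adjusted p = 0.0153) and 1.38 (SE 0.20, adjusted p = 0.00231). Between the tissues 3 transducers were higher and 0 lower in blood of intact animals, and 6 higher and 1 lower after resection, against 3.86%, 3.49%, 6.28% and 6.87% of features. Rnd2 completed the intact list (1.69, SE 0.44, adjusted p = 0.0419), and Rap1b (1.19, SE 0.24, adjusted p = 0.00904) and Farp2 (-1.43, SE 0.35, adjusted p = 0.0205), an exchange factor that binds class A plexins, were among those after resection. In spleen edgeR called 0 with resection, with 7 at an unadjusted p under 0.05, against 20.8% of features.

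Of the 6 proteases that cut semaphorins, plexins or neuropilins, 4 were tested and 3 rose with resection in blood, against 7.8% of features. Adam17 ranged from 57.3 to 83.7 CPM in intact and from 119.95 to 238 CPM in resected blood (log2 fold change 1.26, SE 0.26, adjusted p = 0.00898). Furin ranged from 77.1 to 135 and from 227 to 554 CPM (1.61, SE 0.44, adjusted p = 0.0277). Mmp14 ranged from 0.440 to 1.03 and from 7.05 to 149 CPM (6.34, SE 1.43, adjusted p = 0.0130). The groups did not overlap for any of the 3. In the other comparisons edgeR called 0 proteases, with 1 at an unadjusted p under 0.05 in spleen, 0 between the intact tissues and 3 between the resected tissues, against 20.8%, 25.3% and 33.9% of features. The same marker lists moved with resection in blood as for the members, and their part was not tested.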
